A study of Mus musculus with 7 samples.

Results

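The adrenal cortex and the testis make steroids from cholesterol with a common set of enzymes, and a small group of further genes is best known from the adrenal cortex. Of the 24739 genes with a row in the FPKM table of mouse testes at E14.5, 6 genes of that group were chosen by symbol: *Mc2r*, the receptor for adrenocorticotropic hormone (ACTH); *Mrap*, the accessory protein that carries this receptor to the cell surface; *Cyp21a1*, the steroid 21-hydroxylase; *Cyp11b1*, the steroid 11-beta-hydroxylase; *Cyp11b2*, the aldosterone synthase; and *Akr1b7*, an aldo-keto reductase of the adrenal cortex. Each of the 6 had 1 row. RNA-Seq libraries were made from whole testes, with 1 pair from a single embryo per library, of 3 embryos labelled wild-type and 4 labelled mutant (n = 3 and n = 4), all on a C57BL/6 background. The mutant embryos were homozygous for the *Glis3* zf5 allele (zf5/zf5), a null allele carried by every cell, in which a deletion disrupts DNA binding by this transcription factor. RNA was depleted of ribosomal RNA and not selected for poly-A tails, and the reads were not stranded, so reads from a gene and from an overlapping gene on the opposite strand cannot be told apart. The comparison asks how these genes were expressed in fetal testes with and without functional *Glis3*.

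In the adrenal cortex, ACTH binds MC2R at the surface of the cell and raises cyclic AMP, which increases the supply of cholesterol to the side-chain cleavage enzyme CYP11A1 and the transcription of steroid enzymes. CYP21A1 then hydroxylates progesterone to deoxycorticosterone, CYP11B1 converts this to corticosterone, the main glucocorticoid of mice, and CYP11B2 completes the synthesis of aldosterone in the outer zone of the cortex. Fetal Leydig cells share CYP11A1 and HSD3B1 with the adrenal cortex but use them, with CYP17A1, to make androgens. Transcripts of adrenal-type genes are known in the mouse fetal testis, and gonad and adrenal cortex arise from a common primordium.

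*Glis3* itself had 7.63, 6.89 and 2.91 FPKM (fragments per length of transcript, scaled to the library) in the testes of wild-type embryos 1, 2 and 3, against 3.86, 3.26, 2.90 and 2.66 FPKM in those of mutant embryos 1 to 4. The library labelled wild-type replicate 3 was thus at the level of the mutant testes, and the values of each tested member and the calls of each list are therefore also given without it. The sum of FPKM ranged from 694243 in wild-type replicate 1 to 1018680 in mutant replicate 3. Markers of the testis were present throughout, with *Amh* of Sertoli cells at 99.8 to 200.1 FPKM and *Insl3* of Leydig cells at 189.6 to 389.3 FPKM. Among 13988 genes tested (mean FPKM of 0.5 or more), limma called 1 gene at an adjusted p of 0.05, and 722 genes when the library labelled wild-type replicate 3 was left out. Leaving out any other single library gave 1 to 5 genes. The library labelled wild-type replicate 3 was singled out by its values in these same data. Calls made without it are therefore not independent of that choice.

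All 6 genes had FPKM above 0, except that *Cyp11b2* was at 0 in mutant replicate 4, and their levels spanned a wide range. Over the 7 libraries, *Akr1b7* had the highest mean (13.9 ± 3.07 FPKM, SD), followed by *Cyp11b1* (9.07 ± 3.91), *Mrap* (8.68 ± 2.15), *Mc2r* (2.11 ± 0.470), *Cyp21a1* (1.44 ± 0.760) and *Cyp11b2* (0.0608 ± 0.040). *Akr1b7* was above *Cyp11b1* in 6 of 7 libraries, the exception being mutant replicate 1. *Cyp11b1* was above *Mrap* in 4 of 7 libraries, so this pair had no fixed order. *Mrap* exceeded *Mc2r* in 7 of 7 libraries, by 2.66-fold to 5.24-fold. *Mc2r* was above *Cyp21a1* in 5 of 7 libraries, and both were above *Cyp11b2* in all of them.

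**Figure D1:**
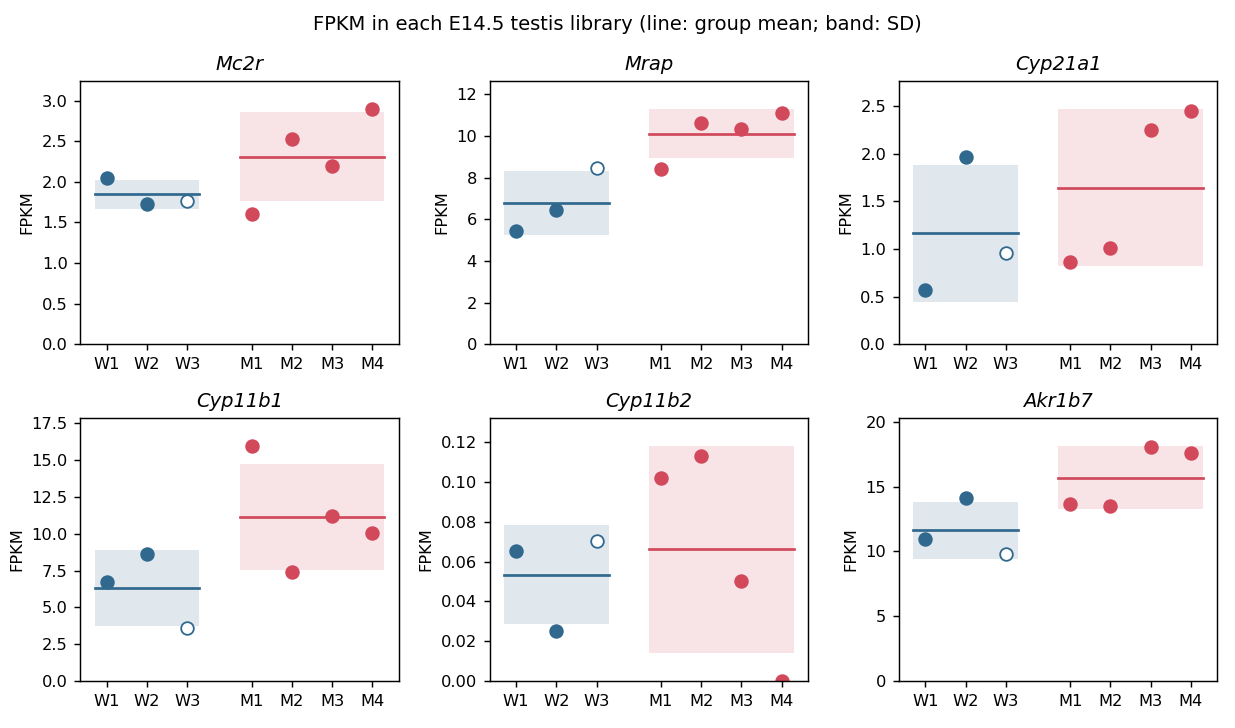
FPKM (vertical axis, linear, from 0, with a scale of its own in each panel) of the 6 genes in wild-type replicates 1 to 3 (W1 to W3, blue, with the library labelled wild-type replicate 3 open) and mutant replicates 1 to 4 (M1 to M4, red). Lines are group means and bands are ± 1 SD (n = 3 and n = 4); the mutant mean is the higher one in every panel, and in every panel at least 1 mutant library lies below the highest wild-type library.

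*Mc2r* and *Mrap* encode the hormone receptor and its partner. *Mc2r* (chromosome 18, 68406899 to 68429320, minus strand) had 2.053, 1.73 and 1.76 FPKM in the testes of wild-type embryos 1 to 3, against 1.61, 2.53, 2.2 and 2.90 FPKM in those of mutant embryos 1 to 4. Mutant replicate 1 was the lowest of all 7 libraries and the other 3 mutant libraries were the highest, so the groups overlapped. The means were 1.85 ± 0.177 (SD, n = 3) and 2.31 ± 0.547 FPKM (SD, n = 4), for a log2 fold change of 0.24 (standard error 0.16, limma adjusted p = 0.486; exact permutation test, p = 0.314). This fold change of *Mc2r* was 0.21 with the library labelled wild-type replicate 3 left out, 0.14 with mutant replicate 4 left out and 0.37 with mutant replicate 1 left out, and no setting gave a call.

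*Mrap* (chromosome 16, 90738324 to 90749776, plus strand) had 5.45, 6.45 and 8.46 FPKM in wild-type testes and 8.42, 10.6, 10.3 and 11.1 FPKM in mutant testes. The library labelled wild-type replicate 3 and mutant replicate 1 were nearly level and were the only pair in which the order of the groups was turned. The means were 6.79 ± 1.53 (SD, n = 3) and 10.1 ± 1.17 FPKM (SD, n = 4), 1.49-fold apart. The log2 fold change was 0.56 (standard error 0.15), with an unadjusted p of 0.00505 and an adjusted p of 0.180 from limma. In the exact permutation test p was 0.0857, where 0.0286 is the smallest value that 35 ways of choosing 3 of 7 libraries allow. Once the library labelled wild-type replicate 3 was left out, the log2 fold change of *Mrap* was 0.71 (standard error 0.13) and its adjusted p from limma was 0.0243. *Mrap* was the only member called in that fit, in which 1.16% of 14019 genes were called higher in mutants.

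Corticosteroid enzymes are encoded by *Cyp21a1*, *Cyp11b1* and *Cyp11b2*. *Cyp21a1* (chromosome 17, 34801348 to 34804426, minus strand) had 0.569, 1.96 and 0.955 FPKM in wild-type testes and 0.860, 1.01, 2.25 and 2.45 FPKM in mutant testes. The 7 libraries lay at either about 1 FPKM or less, or about 2 FPKM or more, and both groups held libraries of each kind. The means were 1.16 ± 0.720 (SD, n = 3) and 1.64 ± 0.823 FPKM (SD, n = 4), and the difference was smaller than the spread within either group (log2 fold change 0.37, standard error 0.36, limma adjusted p = 0.631; exact permutation test, p = 0.457). Leaving out wild-type replicate 1 gave a log2 fold change of 0.09, leaving out wild-type replicate 2 gave 0.70 and a fit with the library labelled wild-type replicate 3 removed gave 0.32, with no call in any of the 3 cases.

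*Cyp11b1* (chromosome 15, 74834892 to 74841643, minus strand) was the most abundant of the 3 enzymes, with 6.74, 8.63 and 3.56 FPKM in wild-type testes and 16.0, 7.37, 11.2 and 10.03 FPKM in mutant testes. Mutant replicate 2 lay below wild-type replicate 2, and the other 3 mutant libraries were above all wild-type libraries. The means of 6.31 ± 2.56 (SD, n = 3) and 11.1 ± 3.59 FPKM (SD, n = 4) were 1.76-fold apart, the widest gap among the tested members. The log2 fold change was 0.80 (standard error 0.31), with an unadjusted p of 0.0296 and an adjusted p of 0.249 from limma (exact permutation test, p = 0.0857). The lowest value came from the library labelled wild-type replicate 3, and without it the log2 fold change of *Cyp11b1* was 0.47 (standard error 0.26, limma adjusted p = 0.328).

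*Cyp11b2* (chromosome 15, 74851010 to 74856318, minus strand) lies 9366 bases from *Cyp11b1* on the same strand. Its FPKM was 0.0653, 0.02498 and 0.0702 in wild-type testes and 0.102, 0.113, 0.05004 and 0 in mutant testes, below the limit of 0.5 FPKM for the fit across genes. FPKM values of low genes stand in steps, and the size of a step in one library relative to another gives their relative depth, which was 0.785 to 0.937 of that of wild-type replicate 1 in the other 6 libraries. Once scaled to these depths, the 7 values of *Cyp11b2* stood at 3, 1 and 3 steps in wild-type and at 4, 4, 2 and 0 steps in mutant testes, each within 0.0335 of a whole number. The size of a step was fitted to these same 7 values, so part of this closeness is built in. If 1 step is 1 fragment, 17 fragments in all were assigned to this gene, 7 in wild-type and 10 in mutant testes. The 0 in mutant replicate 4 then allows up to 3 fragments, or 0.0772 FPKM, counting error only. No difference in *Cyp11b2* was detectable at this depth (exact permutation test, p = 0.743). On the transcript of *Cyp11b2*, 1 step was worth 0.0220 to 0.0280 FPKM, while the lowest value of *Cyp21a1*, on a longer transcript, was 20.3 times the largest of these steps.

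*Cyp11b1* and *Cyp11b2* are close copies, which bears on how far their FPKM can be kept apart. Over 1517 aligned bases of their GENCODE M21 transcripts, 87.9% were identical, with 1 identical run of 244 bases. Of the 1526 stretches of 100 bases (shorter than 1 read) in *Cyp11b2*, 171 also occurred in *Cyp11b1*. The reads were sequenced in pairs, and pairs lying wholly within shared sequence could be placed at either gene. Such pairs were not counted, and the part of *Cyp11b1* reads in the low FPKM of *Cyp11b2* was not tested. The genes differ most within exon 3, and the 60 coding bases shown here, with differing bases in capitals, hold 24 differences. They lie at chr15:74839246-74839305 (*Cyp11b1*) and chr15:74853815-74853874 (*Cyp11b2*) of GRCm38 (mm10), and both are written 5′ to 3′ along the minus strand.
Cyp11b1: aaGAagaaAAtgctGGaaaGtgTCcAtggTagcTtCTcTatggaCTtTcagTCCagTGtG
Cyp11b2: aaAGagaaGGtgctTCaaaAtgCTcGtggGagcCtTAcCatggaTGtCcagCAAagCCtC

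*Cyp21a1* has a pseudogene copy, *Cyp21a2-ps*, with a higher percent identity but a shorter longest identical run than that pair. The share of stretches of 100 bases found in other genes was 6.18% for *Cyp21a1*, beside 11.2% for *Cyp11b2* and 11.6% for *Cyp11b1*. Over 1382 aligned bases 97.5% were identical, with a longest identical run of 140 bases, and 121 of the 1959 stretches of 100 bases in *Cyp21a1* also occurred in the pseudogene or in *Tnxa*, a pseudogene on the opposite strand whose exons share 102 bases with those of *Cyp21a1*. The part of the coding sequence in which the copies differ most is shown to make clear how few bases separate them: 5 of 60, at chr17:34801796-34801855 in exon 10 of *Cyp21a1* and chr17:34719838-34719897 in *Cyp21a2-ps* (GRCm38, minus strand, differing bases in capitals).
Cyp21a1: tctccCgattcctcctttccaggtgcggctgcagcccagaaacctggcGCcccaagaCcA
Cyp21a2-ps: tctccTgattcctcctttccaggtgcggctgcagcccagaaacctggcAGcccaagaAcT
Reads from such stretches could be placed at either copy, so the low FPKM of *Cyp21a1* is uncertain by an amount that was not tested. For *Mc2r* and *Mrap* no stretch of 100 bases occurred in a transcript of another gene.

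*Akr1b7* encodes an enzyme that reduces aldehydes formed when the side chain of cholesterol is cleaved, and in the adrenal cortex its transcription depends on ACTH. The gene (chromosome 6, 34412362 to 34423137, plus strand) had 10.9, 14.1 and 9.81 FPKM in wild-type testes and 13.7, 13.5, 18.0 and 17.6 FPKM in mutant testes. Wild-type replicate 2 lay above mutant replicates 1 and 2, and mutant replicates 3 and 4 were the highest. The means were 11.6 ± 2.23 (SD, n = 3) and 15.7 ± 2.45 FPKM (SD, n = 4), for a log2 fold change of 0.42 (standard error 0.15), an unadjusted p of 0.0210 and an adjusted p of 0.225 from limma (exact permutation test, p = 0.143). That fold change, with the library labelled wild-type replicate 3 left out, was 0.31 (limma adjusted p = 0.276).

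Of the 6 genes, *Akr1b7* was the only member with a sequence in the RefSeq promoter table. Its promoter, 250 bases before and 50 bases after the start at chr6:34412112-34412411 (GRCm38.p6, plus strand, 5′ to 3′), is shown because AAGGTCA, the half-site read by the steroidogenic factor NR5A1, is the element best known from steroid enzyme promoters. Capitals mark the 1 match, which lies on the minus strand and starts 248 bases before the gene.
Akr1b7: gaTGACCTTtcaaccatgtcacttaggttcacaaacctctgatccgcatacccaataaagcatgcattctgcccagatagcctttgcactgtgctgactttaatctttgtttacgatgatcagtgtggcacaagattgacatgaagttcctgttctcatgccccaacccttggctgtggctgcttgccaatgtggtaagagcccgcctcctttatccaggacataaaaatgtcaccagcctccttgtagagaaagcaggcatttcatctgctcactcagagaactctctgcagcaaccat
Of 32851 promoters of this length, 4.72% held AAGGTCA on either strand. TGACG, the half-site of cyclic AMP response elements, was found in 20.8% of promoters and TGGGGGG, the core of the GLIS binding site, in 8.47%, both strands counted, and neither occurred in these 300 bases of *Akr1b7*.

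Across the 5 members tested, 5 had a log2 fold change above 0, beside 52.1% of all 13988 genes tested. Their median log2 fold change was 0.42 (range 0.24 to 0.80), beside 0.01 for all genes. None was called at an adjusted p of 0.05 by limma, where 0.00715% of all genes were called in either direction. An unadjusted p under 0.05 was reached by 3 of 5 (*Mrap*, *Akr1b7* and *Cyp11b1*), beside 8.21% of all genes with such a p and a higher mutant mean. None of the 5 had mutant libraries that were all above the wild-type libraries, a pattern seen in 7.31% of all genes. The summed FPKM of the 6 members was 24.6 to 32.9 in wild-type and 35.1 to 44.1 in mutant testes, most of it from *Akr1b7*, *Cyp11b1* and *Mrap*.

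**Figure D2:**
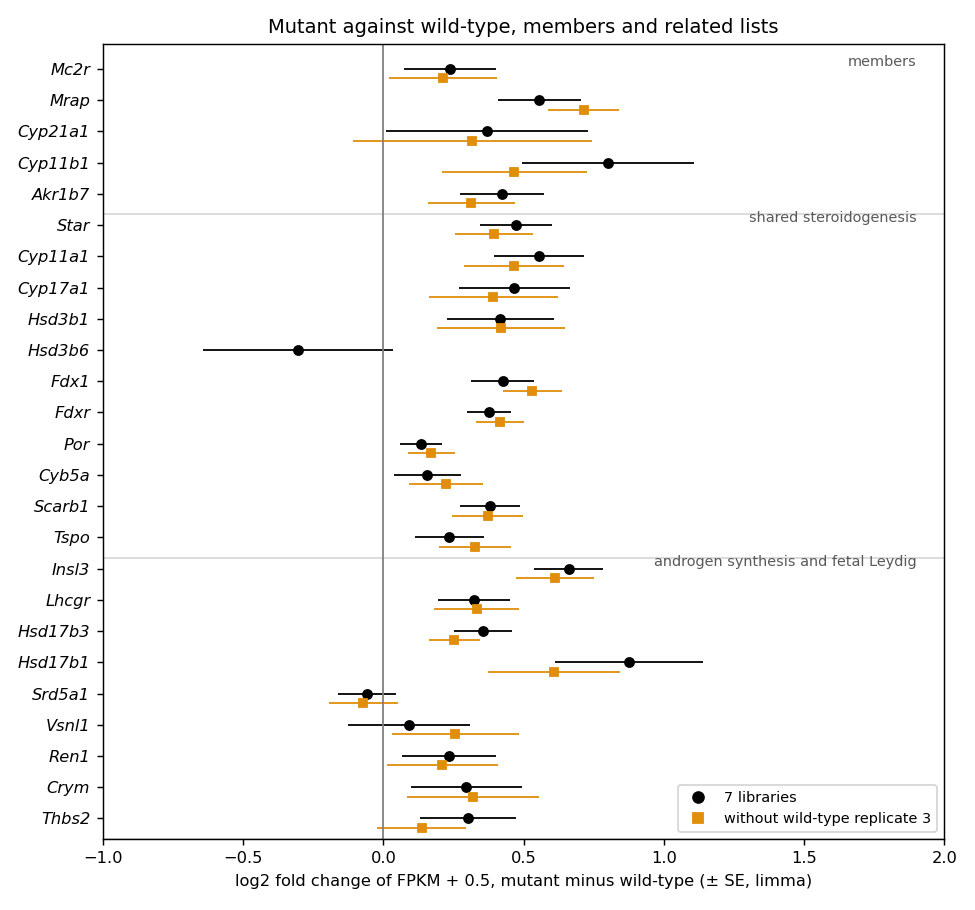
Log2 fold change of FPKM + 0.5, mutant minus wild-type, with its standard error from limma (horizontal axis). Shown are the 5 tested members, 11 genes of steroid synthesis (*Cyp17a1* included), and 9 genes of androgen synthesis and fetal Leydig cells. Black circles are all 7 libraries and orange squares leave out the library labelled wild-type replicate 3 (*Hsd3b6* then no longer passed the filter); *Cyp11b1* moves from 0.80 to 0.47 and *Mrap* from 0.56 to 0.71, and most genes of all 3 lists lie to the right of 0.

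The members did not stand alone in having higher mutant means. Of 11 genes of steroid synthesis, *Cyp17a1* among them, 10 had a log2 fold change above 0, with a median of 0.38. Of 9 genes of androgen synthesis and fetal Leydig cells 8 did, with a median of 0.30. No gene of either list was called with all 7 libraries. With the library labelled wild-type replicate 3 left out, the ferredoxin gene *Fdx1* (log2 fold change 0.53, limma adjusted p = 0.0345) and its reductase *Fdxr* (0.42, limma adjusted p = 0.0385) were called, and the medians of the lists were 0.39 and 0.26. *Cyp11a1*, the side-chain cleavage enzyme, had 434.4, 707.7 and 463.4 FPKM in wild-type and 779.6, 734.9, 732.2 and 823.4 FPKM in mutant testes, without overlap. *Insl3*, a hormone of Leydig cells, had 189.6, 255.1 and 198.8 FPKM in wild-type and 389.3, 321.3, 305.4 and 335.3 FPKM in mutant testes, also without overlap (log2 fold change 0.66, standard error 0.12, limma adjusted p = 0.133, and 0.0506 with the library labelled wild-type replicate 3 left out). *Fdxr*, the reductase that feeds electrons to the mitochondrial P450 enzymes CYP11A1 and CYP11B1, had 71.9, 74.2 and 79.2 FPKM in wild-type and 105.1, 90.2, 104.9 and 91.3 FPKM in mutant testes.

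Markers of germ cells and Sertoli cells were compared in the same way. All 8 germ cell genes had a log2 fold change below 0 (median -0.93), and their summed FPKM was 578.3 to 1344.7 in wild-type and 470.0 to 626.8 in mutant testes. All 7 Sertoli cell genes had a log2 fold change above 0 (median 0.16), 1 of them with an unadjusted p under 0.05 from limma, and no gene of either list was called. With the library labelled wild-type replicate 3 left out, 6 germ cell genes were called lower (median of the list -1.27), and 1 Sertoli cell gene, *Ptgds*, was called higher (median of the list 0.31, with *Sox8* at -0.00313). Of all 14019 genes tested in that fit, 560 were called lower and 162 higher. In whole testes, more Leydig cells, more RNA per Leydig cell and a smaller share of RNA from germ cells cannot be told apart, and the part of each in the values of the members was not tested.

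Set against *Cyp11a1* of the same library, no member showed a difference between the groups beyond the spread of the libraries. The log2 ratio of *Cyp11b1* to *Cyp11a1* was -5.91, -6.28 and -6.84 in wild-type and -5.57, -6.55, -5.97 and -6.29 in mutant testes, a difference in means of 0.25 (exact permutation test, p = 0.571). For *Mrap* the difference in this ratio was 0.002 (p = 1 in the exact permutation test), for *Akr1b7* -0.13 (exact permutation test, p = 0.457), for *Cyp21a1* -0.18 (exact permutation test, p = 0.600) and for *Mc2r* -0.31 (exact permutation test, p = 0.314). These 5 ratios overlapped between the groups, and this comparison was chosen after the values had been seen. In untransformed FPKM, *Akr1b7* reached 1.76% to 2.51% of *Cyp11a1*, *Cyp11b1* 0.769% to 2.048%, *Mrap* 0.912% to 1.82%, *Mc2r* 0.206% to 0.473% and *Cyp21a1* 0.110% to 0.307%.

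**Figure D3:**
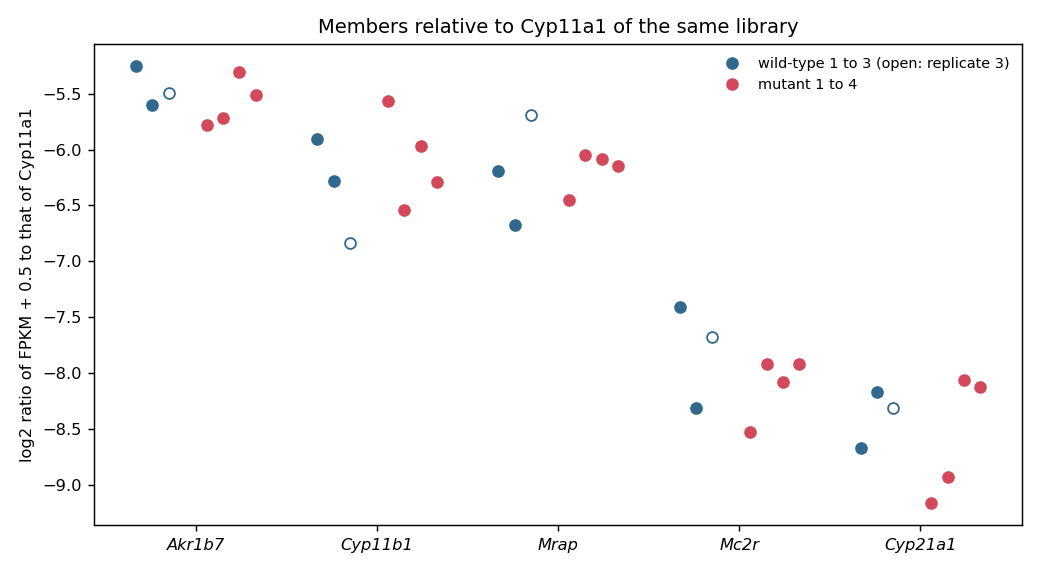
Log2 ratio of FPKM + 0.5 of each tested member to that of *Cyp11a1* in the same library (vertical axis), for wild-type replicates 1 to 3 (blue, from left to right, with the library labelled wild-type replicate 3 open) and mutant replicates 1 to 4 (red, from left to right). The groups overlap for all 5 genes; *Akr1b7* lies between -5.78 and -5.25 and *Cyp21a1* between -9.16 and -8.06.

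The libraries differed among themselves in ways that crossed the groups. Wild-type replicate 2 and mutant replicates 3 and 4 had the highest *Cyp21a1* (1.96, 2.25 and 2.45 FPKM) and, within their own group, the highest *Akr1b7* (14.1, 18.0 and 17.6 FPKM). *Ren1*, the renin gene, which fetal Leydig cells and the fetal adrenal cortex both transcribe, had 149.9, 206.3 and 167.6 FPKM in wild-type and 174.1, 168.3, 230.7 and 253.9 FPKM in mutant testes, highest in the same 3 libraries. *Cyp11b1* was highest in wild-type replicate 2 and mutant replicate 1, and *Mrap* in mutant replicate 4 and the library labelled wild-type replicate 3. The 5 genes thus had no common order of libraries within the groups.

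Likeness of profiles was measured as the root mean square difference of centred log2(FPKM + 0.5) over the 7 libraries, where a smaller value is a closer match. The closest gene to *Mrap* was *Toporsos*, at 0.0568, followed by the histone gene *Hist1h2be* at 0.0758. The closest gene to *Akr1b7* was *Fam129a* at 0.0741 and then *Cybb* at 0.0789, and to *Mc2r* it was *Rnf208* at 0.0895. *Cyp11b1* had no gene within 0.1, and its closest were *Chga* at 0.241, *Tubb3* at 0.248 and *Gnrh1* at 0.266. The closest gene to *Cyp21a1*, *Ifi27l2a*, was at 0.191, beside a spread of 0.531 of *Cyp21a1* around its own mean.

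Other genes of the ACTH pathway were compared as a list of 13. Of these, 8 passed the filter, 6 of the 8 had a log2 fold change above 0 (median 0.16), and none was called, either with all 7 libraries or with the library labelled wild-type replicate 3 left out. *Pomc*, the precursor of ACTH, was present at 0.921 to 2.01 FPKM in wild-type and 1.10 to 1.63 FPKM in mutant testes (log2 fold change -0.01). Among the other melanocortin receptors *Mc4r* had 1.53 to 2.96 FPKM in wild-type and 2.40 to 3.67 FPKM in mutant testes, which was near the level of *Mc2r*, while *Mc1r*, *Mc3r* and *Mc5r* stayed at or below 0.120 FPKM. *Mrap2*, the second accessory protein gene, had 0.0393 to 0.368 FPKM, below *Mrap* in each library. Downstream of the receptor, *Prkar2b*, a regulatory subunit of the cyclic AMP-dependent kinase, had 114.2, 151.1 and 122.9 FPKM in wild-type and 164.4, 180.6, 176.4 and 177.1 FPKM in mutant testes without overlap (limma adjusted p = 0.168). *Pde8b*, a cyclic AMP phosphodiesterase of steroid-making cells, had 2.81, 3.45 and 2.69 FPKM in wild-type and 4.23, 3.97, 3.92 and 3.91 FPKM in mutant testes (limma adjusted p = 0.178).

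**Figure D4:**
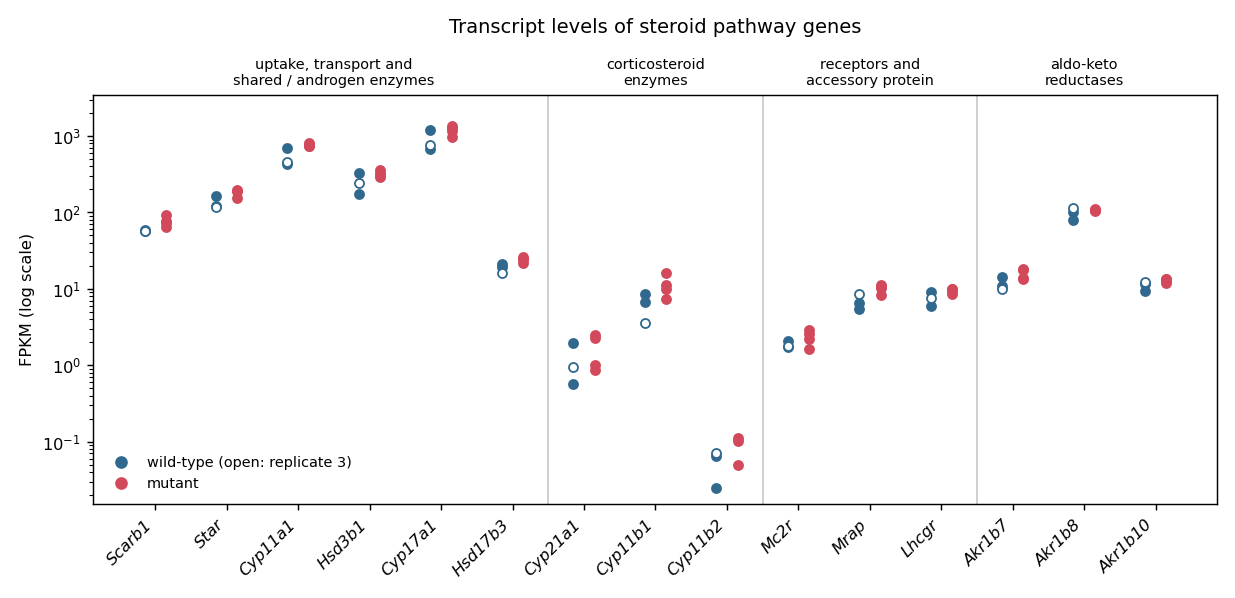
FPKM on a log scale (vertical axis) of 15 steroid pathway genes, grouped by role, in the wild-type (blue, with the library labelled wild-type replicate 3 open) and mutant libraries (red), 1 point per library. *Cyp21a1* and *Cyp11b1* lie between 0.569 and 16.0 FPKM, below the shared enzyme *Cyp11a1* at 434.4 to 823.4 FPKM, and *Cyp11b2* lies at 0.113 FPKM or less (its 0 in mutant replicate 4 cannot be drawn on this axis).

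Genes that mark zones of the adrenal cortex differed widely in level. *Akr1c18*, a marker of the fetal X-zone in mice, was at 0 to 0.0627 FPKM, *Agtr1b*, an angiotensin receptor gene, at 0.0666 to 0.182 FPKM, and *Kcnk9*, a potassium channel of the outer zone, at 0 in 5 libraries and 0.0413 and 0.0411 FPKM in the other two. Other genes of the list were expressed: *Dab2*, which marks the outer zone, had 8.79 to 9.39 FPKM, *Agtr1a* 0.469 to 1.08 FPKM, and *Pik3c2g* and *Thrb*, both used as X-zone genes, 0.359 to 1.004 FPKM and 0.508 to 0.920 FPKM. Of the 11 genes in this list 8 were tested, 6 had a log2 fold change above 0 (median 0.12), and none was called with all 7 libraries. *Kcnk3*, another potassium channel, had 9.52, 8.91 and 8.35 FPKM in wild-type and 12.3, 12.7, 12.6 and 12.6 FPKM in mutant testes, the only gene of the list without overlap between the groups (log2 fold change 0.47, standard error 0.07, limma adjusted p = 0.112, and 0.0207 without the library labelled wild-type replicate 3).

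Chromaffin cells of the adrenal medulla are marked by enzymes of catecholamine synthesis. Of 8 such markers, *Dbh* was at 0 in the 3 wild-type libraries and at 0.0180, 0.0202, 0 and 0 FPKM in mutant testes. *Chgb* reached at most 0.112 FPKM. Other markers were above these levels. *Pnmt* had 0.8002, 1.43 and 1.91 FPKM in wild-type and 2.54, 3.04, 1.69 and 2.32 FPKM in mutant testes, and *Chga* had 0.904, 1.32 and 0.605 FPKM and 2.55, 1.67, 1.97 and 1.35 FPKM. *Th*, the first enzyme of catecholamine synthesis, had 1.49, 1.001 and 0.186 FPKM in wild-type and 0.356, 0.312, 0.4996 and 0.539 FPKM in mutant testes (log2 fold change -0.46, limma adjusted p = 0.499), and with the library labelled wild-type replicate 3 left out it was called lower (log2 fold change -0.91, limma adjusted p = 0.0345). *Slc18a1* had 0.208 to 0.337 FPKM in wild-type and 0.152 to 0.224 FPKM in mutant testes. The summed FPKM of the 8 genes was 3.16 to 4.27 in wild-type and 4.57 to 5.97 in mutant testes, most of it from *Pnmt*, *Chga* and *Th*.

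Genes through which corticosteroids act were compared as a list of 8, of which 7 were tested, 5 had a log2 fold change above 0 (median 0.08) and none was called with all 7 libraries. *Nr3c1*, the glucocorticoid receptor, had 11.7 to 14.6 FPKM in wild-type and 12.9 to 15.1 FPKM in mutant testes (log2 fold change 0.04), and *Nr3c2*, the mineralocorticoid receptor, had 0.465 to 0.577 FPKM in wild-type and 0.583 to 0.746 FPKM in mutant testes (limma adjusted p = 0.508). *Hsd11b2*, which inactivates corticosterone, had 5.38 to 10.5 FPKM, above *Hsd11b1*, which regenerates it, at 0.253 to 0.480 FPKM. The log2 fold change of *Hsd11b2* was 0.31 (limma adjusted p = 0.421), and with the library labelled wild-type replicate 3 left out it was 0.55 and called (limma adjusted p = 0.0458). Targets of the receptors differed in direction. *Sgk1*, a kinase induced by both receptors, had 19.1, 19.4 and 18.1 FPKM in wild-type and 14.4, 15.2, 12.04 and 17.5 FPKM in mutant testes, lower in every mutant library (log2 fold change -0.35, standard error 0.11, limma adjusted p = 0.206). *Fkbp5*, another target of the glucocorticoid receptor, had 57.7, 53.8 and 62.4 FPKM in wild-type and 66.2, 65.1, 67.9 and 62.7 FPKM in mutant testes, higher in every mutant library (log2 fold change 0.18, limma adjusted p = 0.243). Among 10 regulators of steroid enzymes that were tested, all had a log2 fold change above 0 (median 0.14) and none was called with all 7 libraries. *Nr5a1* had 57.7, 66.3 and 77.0 FPKM in wild-type and 82.3, 80.0, 76.3 and 82.1 FPKM in mutant testes, and was called with the library labelled wild-type replicate 3 left out (log2 fold change 0.37, limma adjusted p = 0.0364), when the median of the list was 0.22.

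Relatives and neighbours of the members were examined for values that could be mistaken for them. *Akr1b8*, a paralog of *Akr1b7* with 86.5% identity over 928 aligned bases, was more abundant, at 80.5 to 115.2 FPKM in wild-type and 103.6 to 110.3 FPKM in mutant testes. *Akr1b10*, with 89.4% identity over 963 bases and 15412 bases away on the same strand, had 9.35 to 12.4 FPKM and 11.9 to 13.5 FPKM. Their log2 fold changes were 0.13 and 0.21 (limma adjusted p = 0.567 and 0.342), beside 0.42 for *Akr1b7*. *Akr1b3*, a further relative, had 7.29, 10.7 and 8.38 FPKM in wild-type and 9.32, 2.46, 6.29 and 5.85 FPKM in mutant testes (log2 fold change -0.63, limma adjusted p = 0.397). The longest identical run with *Akr1b7* was 52 bases for *Akr1b8* and 59 bases for *Akr1b10*. No stretch of 100 bases of *Akr1b7* occurred in either of them. The difference between paralogs was not tested. *Urb1*, on the opposite strand 1750 bases beyond *Mrap*, had 11.3, 9.5 and 6.13 FPKM in wild-type and 5.99, 5.64, 4.99 and 4.81 FPKM in mutant testes, opposite in direction to *Mrap* (log2 fold change -0.66, limma adjusted p = 0.183).

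*Hemt1*, on the opposite strand 10455 bases from *Cyp11b1*, had 12.02, 17.6 and 2.56 FPKM in wild-type and 7.55, 4.01, 1.26 and 1.26 FPKM in mutant testes. *Gml2*, annotated on the opposite strand, has no row in the table under that name. Its GENCODE M21 model shares 285 exon bases with a longer 3′ end of *Cyp11b1*, none of them inside the *Cyp11b1* model that the FPKM table uses. Unlike *Cyp11b1*, *Hemt1* had higher values in wild-type replicates 1 and 2 than in any mutant library. The exons of *Akr1b7* share 348 bases with *Gm13857*, a pseudogene annotated on the opposite strand that has no row in the table, and 11 of the 1182 stretches of 100 bases in *Akr1b7* occurred in it.

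Reads of LINE, SINE and LTR elements inside the members, counted separately by the authors, gave a further readout of the same libraries. The elements were taken anywhere in the gene body, introns included, so their reads need not come from the spliced transcripts behind the FPKM. In *Cyp11b1*, 3 elements held 16, 12 and 4 reads in wild-type and 23, 11, 22 and 11 reads in mutant testes (log2 fold change 0.87, edgeR adjusted p = 0.444). With the library labelled wild-type replicate 3 left out this fold change was 0.48, and leaving out each library in turn gave 0.48 to 1.15, with no call. Of the 99 reads, 78 came from a B3A element at chr15:74834562-74834758, in the longer 3′ end where *Gml2* is annotated on the opposite strand, with 10, 11 and 1 reads in wild-type and 19, 9, 19 and 9 in mutant testes. The 21 elements in *Mc2r* held 28, 28 and 18 reads in wild-type and 16, 18, 28 and 29 in mutant testes (log2 fold change 0.10, edgeR adjusted p = 0.938). The 12 elements in *Akr1b7* held 16, 15 and 11 reads in wild-type and 21, 4, 21 and 9 in mutant testes (log2 fold change 0.19, edgeR adjusted p = 0.916), and the 15 in *Mrap* held 8, 7 and 7 and 3, 6, 5 and 6 reads (log2 fold change -0.33, edgeR adjusted p = 0.819). With the library labelled wild-type replicate 3 left out these 3 fold changes were -0.083, 0.046 and -0.35. None was called, where 0.0108% of the 18485 genes tested were, and *Cyp21a1* and *Cyp11b2* held 1 read and 0 elements.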

How the data were processed

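RNA-Seq of whole E14.5 testes (3 libraries labelled wild-type, 4 mutant) was used, grouped by the sample labels. The authors aligned reads to mm10 with TopHat 2.0.12 and made FPKM per RefSeq gene with Cuffquant and Cuffnorm; the deposited FPKM carry the library scaling of that workflow. The authors also counted uniquely mapped reads per RepeatMasker element with HTSeq-count, and these deposited counts are not normalized. The header of both tables lacks 1 tab, so the 7 names were read in order against the 7 columns. Cuffdiff needs aligned reads and was not run.

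Log2(FPKM + 0.5) of genes averaging 0.5 FPKM or more was tested with limma 3.58.1 (trend, two-sided, Benjamini-Hochberg adjustment, threshold 0.05) in R 4.3.3. Fold changes on this scale understate those of low genes. Single values were tested with two-sided exact permutation tests over 35 splits. Repeat reads were summed inside GENCODE M21 genes, with a mean of at least 5 reads, and tested with edgeR 4.0.16 (TMM, quasi-likelihood), with DESeq2 1.42.0 as an alternative. Transcripts were aligned locally with Biopython 1.88. Scripts were tested on simulated data.

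The members and gene lists were chosen with earlier results of these data known. Named genes are the members, list genes, chromosomal neighbours, *Glis3* and the 3 closest profiles of each tested member, of which some are printed; lists of further cell types are summarized at the end. Alternatives were pseudocounts of 0.1 and 1, other filters, normalizations and variance models, the replicate number as a block, and each library left out in turn. Replicates were separate embryos, and no 2 libraries held identical values. The repeat reads per library summed to 3454317 to 4670830; FPKM hold no counts, so the fragments behind them are not known beyond the steps of low values. Intervals and limits cover counting error only.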

Additional observations from a re-analysis of the deposited data

How the results depend on the processing

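The 5 tested members kept a log2 fold change above 0 under every alternative (*Cyp21a1*, which has a mean under 2 FPKM, had no value under the filter at 2). The only call gained was *Mrap* without the library labelled wild-type replicate 3 (0.71); leaving out each library gave 0.42 to 0.71, and its adjusted p over all alternatives was 0.0243 to 0.394. The number of genes called was 4 with no filter, 3 with quantile normalization, 0 with the replicate block, and 1 to 722 when each library was left out. The block estimates of the members changed no call, although the unadjusted limma p of *Akr1b7* was 0.0716 with the block. Whether the replicate numbers pair the libraries was not settled. The correlations of deviations were 0.198, -0.177 and 0.229, and 4 of 6 libraries correlated best with their own number. By repeat reads inside genes, 0 were called higher and 2 lower with edgeR, 24 and 32 with DESeq2, and 33 and 180 with edgeR without the library labelled wild-type replicate 3. Repeat reads inside *Mc2r* turned to -0.0307 with the replicate block and ranged from -0.0829 to 0.303 when each library was left out, and those inside *Akr1b7* from -0.106 to 0.478. Leaving out each library moved the *Cyp11b2* difference from -0.0106 to 0.0874, and the ratios to *Cyp11a1*, an added comparison, from -0.354 to 0.0139 for *Cyp21a1*, -0.0003 to 0.463 for *Cyp11b1* and -0.241 to 0.247 for *Mrap*; the causes were not tested. With 1 wild-type library left out the smallest exact p is 0.0667, so no such test could pass.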

Other observations

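Lists of other cell types gave values that bear on the makeup of the libraries. Skeletal muscle genes, 8 in number, summed to 48.1, 8.28 and 8.45 FPKM in wild-type and 28.6, 24.4, 8.51 and 70.5 FPKM in mutant testes, so muscle transcripts varied within both groups. Mesonephric and kidney genes, 9 in number, summed to 11.1 to 14.4 FPKM in wild-type and 10.1 to 12.5 FPKM in mutant testes, with 1 of 5 tested genes above 0 in log2 fold change. Macrophage genes summed to 26.4 to 32.0 FPKM in wild-type and 31.5 to 43.4 FPKM in mutant testes, highest in mutant replicates 3 and 4, where *Akr1b7* and *Cyp21a1* were also highest; their part in those values was not tested. Endothelial genes summed to 78.1 to 97.5 and 83.8 to 90.1 FPKM, and 5 erythroid genes to 807.5 to 3323.4 and 794.8 to 1905.6 FPKM. No gene of these 5 lists was called, either with all 7 libraries or with the library labelled wild-type replicate 3 left out.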
